A study of Mus musculus with 16 samples.

Results

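The acute response of BLT1-/- mouse lungs to crystalline silica was read from 3 lungs taken at day 2 after instillation and from 1 pool of control lungs. The members are all 3 arrays labelled as BLT1-/- with crystalline silica (CS) at day 2 and the 1 array of pooled BLT1-/- lungs given phosphate-buffered saline (PBS), 4 of the 16 arrays of the series, compared over 19938 genes. All mice were C57BL/6, 10 to 12 weeks old, and received CS or PBS by instillation into the trachea. A PBS array holds RNA pooled from 3 mice, and a CS array holds the total lung RNA of 1 lung sample, which the labels number as biological replicates without naming animals. P-values thus reflect how far CS lungs scatter within their groups, whether from biology or handling. This scatter was estimated over all 16 arrays of the series and not from the 4 members alone. It includes BLT1+/+KRasLA1 lungs at day 60, which are not compared here. The unreplicated pool was given the same variance as the CS lungs. The groups used for comparison were BLT1+/+ lungs at day 2, with 3 CS lungs and 1 PBS pool, and BLT1-/-KRasLA1 lungs at day 60, again 3 CS lungs and 1 PBS pool; BLT1-/- mice lack the receptor, and KRasLA1 is a latent oncogenic allele that becomes active by spontaneous recombination.

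Crystalline silica is a mineral dust that macrophages and epithelial cells take up but cannot digest, and it damages the lysosomes of those cells, releases interleukin 1 and draws neutrophils and monocytes into the airspaces. Leukotriene B4, a lipid made from arachidonic acid by 5-lipoxygenase and leukotriene A4 hydrolase, is among the strongest neutrophil attractants, and BLT1, encoded by Ltb4r1, is its high-affinity receptor. BLT1 is found mainly on neutrophils, monocytes and activated T cells. A lung without BLT1 still holds the chemokine receptors through which CXC and CC chemokines recruit the same cells.

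Values are log2 levels, so a difference of 1 is a doubling, and every difference below is the mean of the 3 CS lungs minus the PBS pool, with its standard error from limma. Adjusted p-values come from limma, corrected across the 19938 genes by the Benjamini-Hochberg method, and genes are said to have risen or fallen where this value was below 0.05. Genes of lung epithelium and vessels were high on all 4 arrays: surfactant protein C (Sftpc) lay at 14.28 to 14.33, surfactant protein B (Sftpb) at 13.97 to 14.07, the club cell secretoglobin Scgb1a1 at 14.25 to 14.39, the alveolar type 1 gene Ager at 13.26 to 13.43 and the endothelial gene Cldn5 at 12.56 to 12.96. Ltb4r1 stood at 7.35, 7.42 and 7.43 in the CS lungs and 7.56 in the pool, and its difference of -0.16 ± 0.12 did not pass the test (adjusted p = 0.41). The position of its probe set against the deletion is not known here, and this level therefore checks nothing about the genotype. Lung 3 stood farther from the pool than the other lungs: 398 genes were at least 2-fold above the pool and 140 at least 2-fold below it, against 173 and 24 in lung 1 and 248 and 32 in lung 2.

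At day 2 after silica, 1035 genes had risen in BLT1-/- lungs, 5.19% of those tested, and 280 had fallen, 1.4%. Rises were larger than falls: 227 rises and 27 falls were at least 2-fold, 42 rises and 0 falls at least 4-fold, and 8 rises at least 8-fold. The largest rise was that of Saa3 and the largest fall that of Igfbp3. All 1315 called genes moved the same way in each of the 3 lungs. A call on the mean of these lungs against 1 shared pool nearly requires this. Because the lungs share the pool, lying on the same side of it is not separate evidence for a gene or a list below. The share of all genes with 3 lungs on 1 side was not counted. Lung 3 was the farthest from the pool in 799 of the 1035 rises and 215 of the 280 falls. The median difference over all genes was -0.05, and 4738 genes had an unadjusted p below 0.05.

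These counts rest on a single control array and on individual lungs. Without lung 2 the test called 662 rises and 167 falls, and without lung 3 it called 591 and 106. Of the called genes, 580 rises and 166 falls were also called when the same lungs were set against the BLT1+/+ PBS pool. Rises made up 78.7% of the calls with the deposited scaling and 66.2% after quantile normalization across arrays. With the replicate number shared by the CS lungs of both genotypes as a block, a fit in which the unnumbered pools take the average of the 3 numbers, 1686 genes were called higher and 659 lower.

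The genes with the largest rises were, in order, Saa3, Il6, Cxcl2, Ccl3, Timp1, Tnip3, Tnc, Ccl2, Chl1, Cxcl13, Orm1, Ly6i, Cxcl10, Slc7a11 and Ereg, and those with the largest falls were Igfbp3, Chad, Ppbp, Ly6d, Cd79a, H2-Ob, Ifi214, Ms4a1, Bank1, Fcmr, Nkg7, Ms4a4b, Actc1, Gimap3 and Cd79b. The rule for naming these 30 genes required the 3 CS lungs to lie on the same side of the pool. The insulin-like growth factor binding protein gene Igfbp3 had the largest fall: its levels were 9.95, 10.05 and 9.33 in the lungs and 11.56 in the pool, a difference of -1.78 ± 0.27 (adjusted p = 0.00381). Chl1, which encodes a neural cell adhesion molecule, rose from 6.51 in the pool to 9.04, 9.69 and 9.72 in the lungs. Chad, the gene of the cartilage matrix protein chondroadherin, fell from 11.83 to 10.77, 10.15 and 9.75. The smallest distance between a lung and the pool among these 3 genes was seen for Chad in lung 1.

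**Figure D1:**
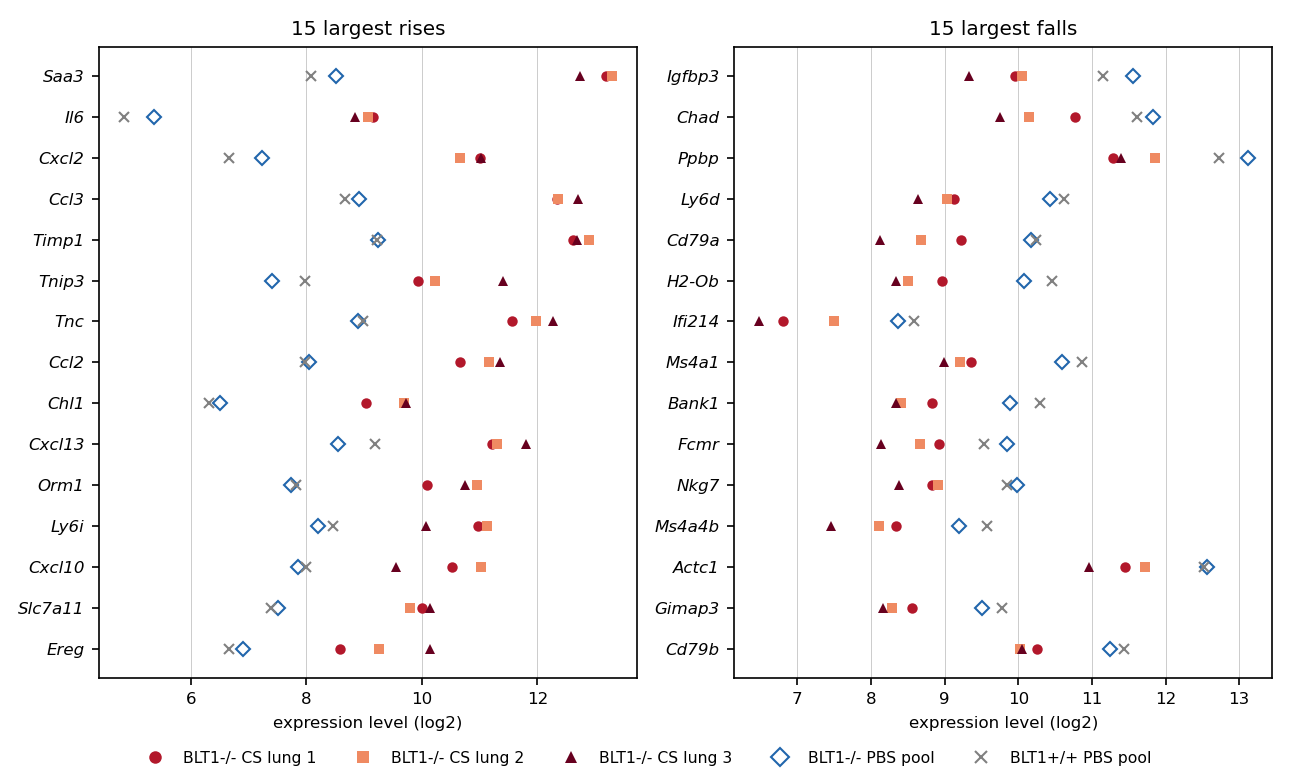
Log2 level (horizontal axis) of the 15 genes with the largest rises and the 15 with the largest falls, with dots for the 3 BLT1-/- CS lungs, diamonds for the BLT1-/- PBS pool and grey crosses for the BLT1+/+ PBS pool. All 3 lungs lie to the right of the BLT1-/- pool for the rises, such as Saa3 at 12.74 to 13.30 against 8.51, and to the left of it for the falls, such as Igfbp3 at 9.33 to 10.05 against 11.56.

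Acute phase proteins, the secreted proteins that tissues and liver make under interleukin 6 and interleukin 1, rose in number: 8 of 14 measured members rose and none fell, with a median difference of 0.84 against -0.05 over all genes. Saa3, the serum amyloid A form made by macrophages and epithelium, stood at 13.18, 13.30 and 12.74 in the CS lungs and 8.51 in the pool. This is a difference of 4.56 ± 0.31, or 23.6-fold (adjusted p = 2.49e-05), and every lung exceeded the pool more than for any other gene of the list. Orm1, encoding an acute phase glycoprotein, was at 10.10, 10.95 and 10.75 against 7.74 in the pool. Lcn2, the iron-siderophore binding lipocalin of neutrophils and injured epithelium, had lungs close together, at 13.94, 13.99 and 13.94 against 12.99, a difference of 0.96 ± 0.07 (adjusted p = 4.34e-05). Serpina3n, a protease inhibitor, rose by 1.03 ± 0.19, the complement factor Cfb by 1.28 ± 0.25 and Lrg1, a leucine-rich glycoprotein, by 0.93 ± 0.17. Haptoglobin (Hp) and hemopexin (Hpx), plasma proteins that bind hemoglobin and heme, differed by 0.04 and 0.01 and did not pass.

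Chemokines for neutrophils and monocytes rose without BLT1. Among 7 genes of the CXC chemokines that act on neutrophils, 3 rose and 1 fell, and among 16 CC chemokines 4 rose and 1 fell. Cxcl2, a ligand of the neutrophil receptor CXCR2, stood at 11.00, 10.65 and 11.03 in the CS lungs and 7.24 in the pool, a difference of 3.66 ± 0.69 (adjusted p = 0.0104). All 3 lungs were within a narrow band far above the pool. Cxcl1 (9.35, 9.28 and 9.15 against 8.19) and Cxcl5 (8.01, 8.29 and 7.88 against 6.68), ligands of the same receptor, rose by 1.07 ± 0.23 and 1.38 ± 0.30. Cxcl3 differed by 1.23 with an adjusted p of 0.12, and it passed with the replicate block (adjusted p = 0.0275). The member that fell was Ppbp, a chemokine stored in platelets, at 11.29, 11.86 and 11.40 against 13.11, a difference of -1.60 ± 0.30.

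The CC chemokines that rose act on monocytes and macrophages. Ccl3 stood at 12.33, 12.36 and 12.70 in the CS lungs and 8.91 in the pool, a difference of 3.56 ± 0.45 (adjusted p = 0.00158). Ccl2, the main ligand of the monocyte receptor CCR2, stood at 10.67, 11.17 and 11.35 against 8.05, a difference of 3.01 ± 0.44, and its neighbour in function Ccl7 at 9.81, 10.34 and 10.52 against 7.97, a difference of 2.25 ± 0.41. The CC chemokine that fell was Ccl5, an attractant of T cells that T and natural killer cells make. It fell by 0.89 to 10.31, 10.51 and 10.19 from 11.23. Cxcl13, the B cell attractant, rose to 11.21, 11.30 and 11.81 from 8.55. Cxcl10, an interferon-induced T cell attractant, was at 10.53, 11.02 and 9.55 against 7.85, a difference of 2.51 ± 0.64 (adjusted p = 0.034), and its call was lost without lung 1 (adjusted p = 0.054) and without lung 2 (adjusted p = 0.075). Cxcl10 had the widest spread between lungs of these chemokines.

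Several of these promoters hold a binding sequence of NF-kB, the transcription factor that interleukin 1 and tumor necrosis factor activate, and 4 that hold one are printed here, chosen for that match from the risen chemokine, cytokine and NF-kB feedback genes. The sequences are the 150 bases before the transcription start, 5′ to 3′ on the strand of the gene, from RefSeq on build GRCm38.p6, with the match to the NF-kB consensus in capitals.
Il6, chr5:30012964-30013113, plus strand: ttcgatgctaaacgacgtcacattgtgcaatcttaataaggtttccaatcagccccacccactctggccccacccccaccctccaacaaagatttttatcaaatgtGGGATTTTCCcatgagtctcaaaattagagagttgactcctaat
Cxcl2, chr5:90903749-90903898, plus strand: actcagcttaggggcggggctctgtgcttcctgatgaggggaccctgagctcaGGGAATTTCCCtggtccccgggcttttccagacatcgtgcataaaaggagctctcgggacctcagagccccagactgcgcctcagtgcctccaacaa
Cxcl10, chr5:92348890-92349039, minus strand: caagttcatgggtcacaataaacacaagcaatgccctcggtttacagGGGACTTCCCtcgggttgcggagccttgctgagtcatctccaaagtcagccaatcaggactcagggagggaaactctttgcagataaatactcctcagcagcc
Tnip3, chr6:65590248-65590397, plus strand: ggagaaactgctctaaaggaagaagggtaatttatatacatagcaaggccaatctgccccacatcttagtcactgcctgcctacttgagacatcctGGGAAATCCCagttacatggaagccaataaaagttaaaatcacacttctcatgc
The matches begin 44 bases before the start in Il6, 97 in Cxcl2, 103 in Cxcl10 and 54 in Tnip3. The consensus was searched on both strands over the 250 bases before each listed start. It was present in 4.46% of 27025 genes of the promoter table and in 5.05% of the measured genes that the table holds. Among risen genes the share was close to that, 46 of the 833 that the table holds (5.52%). It was present in 3 of the 6 neutrophil-directed CXC chemokine genes held and in 8 of 16 NF-kB feedback genes. Of 18 cytokines 3 held it, and of 11 acute phase genes 0. A match describes the letters of the window and is not evidence of binding in these lungs.

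Genes of neutrophils themselves did not follow the chemokines. Of 21 measured neutrophil genes 1 rose, Lcn2, which injured epithelium also makes, and 1 fell. Over all genes 5.19% rose and 1.4% fell, so these counts do not set the list apart. The median difference was -0.25, and it was -0.15 after quantile normalization and -0.11 after cyclic loess, where 0 genes of the list were called lower. The calprotectin genes S100a8 and S100a9, the most abundant cytosolic proteins of neutrophils, differed by -0.58 (adjusted p = 0.493) and -0.66 (adjusted p = 0.437). S100a8 levels were 11.47, 11.86 and 11.31 in the CS lungs against 12.12 in the pool, so all lungs lay below it without passing the test. Ly6g, which encodes a surface protein used to identify mouse neutrophils, was at 8.71, 9.93 and 8.48 against 10.90 (difference -1.86 ± 0.53, adjusted p = 0.0519), and passed with the replicate block (adjusted p = 0.0422) and without lung 2 (adjusted p = 0.0178). Ngp, a granule protein gene of neutrophil precursors, fell from 8.58 to 7.27, 7.54 and 7.85 (difference -1.03 ± 0.24, adjusted p = 0.0259), and its call was lost without lung 2 (adjusted p = 0.0541).

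The control pool bears on this result. The 21 neutrophil genes were higher in the BLT1-/- pool than in the BLT1+/+ pool by a median of 0.34, and against the BLT1+/+ pool the median of the same CS lungs was 0.17 rather than -0.25. The summed level of the list, the log2 of the sum of its linear values, was 15.12 to 15.45 in the 3 lungs, 15.18 in their own pool and 14.78 in the BLT1+/+ pool, so the lungs overlapped their own pool but not the other. The part of the pool in this result was not tested. In lung RNA, fewer cells of a type and less RNA per cell cannot be told apart.

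Among 24 cytokines and colony-stimulating factors 4 rose and none fell. Il6, the main inducer of acute phase proteins, was at 9.15, 9.07 and 8.85 in the CS lungs and 5.36 in the pool, a 12.7-fold difference of 3.67 ± 0.38 (adjusted p = 0.000595), and the lungs lay close together. The alarmin Il33, which alveolar type 2 cells hold in mouse lung, rose from 11.60 to 12.74, 12.92 and 13. Il1a, an interleukin 1 released from damaged cells, rose from 7.61 to 9.65, 9.43 and 9.47, and Il1rn, the antagonist of its receptor, from 9.08 to 10.91, 10.89 and 10.97. Il1b differed by 0.66 (adjusted p = 0.412) and Tnf by 0.64 (adjusted p = 0.33), so neither of these macrophage cytokines passed.

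NF-kB feedback genes rose in 6 of 18 cases, with none lower and a median difference of 0.39. Tnip3, an inhibitor of the pathway, was at 9.94, 10.23 and 11.40 against 7.41 in the pool, a difference of 3.11 ± 0.52 (adjusted p = 0.00661), and lung 3 stood above the other lungs. The nuclear inhibitor Bcl3 rose by 0.80 ± 0.17 and the adhesion molecule Icam1 by 0.53 ± 0.09. Socs3, the inhibitor of interleukin 6 signalling, rose by 0.89 ± 0.20. E-selectin (Sele), which slows leukocytes on vessel walls, rose by 0.84 ± 0.19, whereas the integrin subunit Itga4 of lymphocytes and monocytes fell by 0.94. Of 10 leukotriene enzymes and receptors none rose and 1 fell. The member that fell was Alox12, the 12-lipoxygenase of platelets, at 8.62, 9.24 and 8.57 against 9.73, a difference of -0.92 ± 0.24 (adjusted p = 0.0385) whose call was lost without lung 1 (adjusted p = 0.0682) or lung 3 (adjusted p = 0.0956). Of the enzymes that make leukotriene B4, 5-lipoxygenase (Alox5) differed by -0.07, its activating protein (Alox5ap) by -0.39 and leukotriene A4 hydrolase (Lta4h) by 0.18, none of them past the test. Among the prostaglandin genes, the synthase Ptges rose by 0.96 ± 0.16 and the prostaglandin E2 receptor Ptger4 by 0.86 ± 0.16.

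Interferon-stimulated genes gave no call in either direction among 22 measured, and the lungs differed from each other. The median of the list lay 0.15 above the pool in lung 1, 0.70 above it in lung 2 and at -0.28 in lung 3. All 22 genes exceeded the pool in lung 2, 15 did in lung 1 and 7 in lung 3. The interferon regulatory factor Irf7 was at 9.79, 10.84 and 8.99 against 9.48 in the pool, and the antiviral gene Rsad2 at 9.37, 10.41 and 8.83 against 9.20, so for both genes the lungs lay on either side of the pool. Ifit3, another interferon-induced gene, differed by 0.86 and passed with the replicate block (adjusted p = 0.0474) and without lung 3 (adjusted p = 0.0313).

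Of 21 monocyte and recruited macrophage genes 3 rose and none fell, with a median difference of 0.01 that turned to -0.06 after quantile normalization and to -0.04 after cyclic loess. Cd14, the endotoxin co-receptor, rose from 9.39 to 11.00, 11.12 and 11.22, and Ly6i, a Ly6 family surface protein of monocytes, from 8.20 to 10.96, 11.13 and 10.07. The protease genes Ctsk (9.0 in the pool, 10.51, 10.29 and 10.85 in the lungs) and Mmp12 (8.79 and 10.39, 10.35, 10.49), the macrophage elastase, rose by 1.56 ± 0.19 and 1.62 ± 0.30. Acod1, which makes itaconate in activated macrophages, was at 10.77, 10.54 and 10.39 against 8.49, a difference of 2.08 ± 0.58 (adjusted p = 0.0485) that lost its call without lung 1 (adjusted p = 0.0768), lung 2 (adjusted p = 0.0836) or lung 3 (adjusted p = 0.0793). Of 17 alternative activation genes 4 rose and none fell, with a median of 0.37. The count was 3 without lung 1, 1 without lung 2 and 2 without lung 3. The transferrin receptor gene Tfrc, a member of that list, rose by 0.85 ± 0.14, and Arg1, the arginase of alternatively activated macrophages, differed by 1.56 without passing (adjusted p = 0.15).

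Cell cycle genes had the largest shares of risen members among the 63 lists. Of 42 measured mitosis genes 39 rose and none fell, with a median difference of 1.61, and of 34 DNA replication genes 32 rose and none fell, with a median of 1.03. All 42 and all 34 lay above the pool in each of the 3 lungs. Lists without any call also had members with all 3 lungs on 1 side of the pool. These were 14 of 17 mast cell, basophil and eosinophil genes, 9 of 13 fat genes and 9 of 11 plasma cell genes. They were 4 of 9 red blood cell genes and 7 of 22 interferon-stimulated genes. Lung 3 was the farthest from the pool for all 42 and all 34 genes: the median of the mitosis list above the pool was 1.17 in lung 1, 1.43 in lung 2 and 2.32 in lung 3. Without lung 3 the test still called 37 mitosis genes and 29 replication genes.

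Cyclin A2 (Ccna2), which drives S phase and mitosis, stood at 10.38, 10.62 and 11.61 in the CS lungs and 8.55 in the pool, a difference of 2.31 ± 0.37 (adjusted p = 0.00589). The proliferation antigen Mki67 was at 10.56, 10.82 and 11.59 against 8.92, and topoisomerase II alpha (Top2a), which untangles sister chromosomes, at 9.87, 10.22 and 10.97 against 8.24. In all 3 genes lung 3 was the highest and no lung came near the pool. Cdk1, the mitotic kinase, was at 10.34, 10.42 and 11.36 against 8.72. Of the 3 mitosis genes that did not pass, Ndc80 (0.69, adjusted p = 0.0521) and Ncaph (0.74, adjusted p = 0.0653) passed with the replicate block (adjusted p = 0.00929 and 0.0058) and without lung 1 (adjusted p = 0.0147 and 0.0259), and Cenpa (0.54) passed under neither.

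On the replication side, the 6 subunits of the MCM helicase that opens DNA at origins rose together, Mcm2 by 1.22 ± 0.14, Mcm3 by 1.14 ± 0.13, Mcm4 by 0.96 ± 0.12, Mcm5 by 1.18 ± 0.17, Mcm6 by 1.16 ± 0.13 and Mcm7 by 1.04 ± 0.14. Cyclin E2 (Ccne2), which starts S phase, had the largest difference of the list: it stood at 8.79, 9.02 and 9.69 against 6.87 in the pool, 2.30 ± 0.30 (adjusted p = 0.00178). Rrm2, the regulated subunit of the enzyme that makes deoxynucleotides, rose by 1.97 ± 0.36, and the sliding clamp Pcna by 0.66 ± 0.12. Ctps, which makes cytidine triphosphate, rose from 9.11 to 10.90, 10.97 and 11.11. The spread used by the test matters for these lists: with the 8 day 2 arrays alone 22 mitosis and 21 replication genes passed, and with the 4 BLT1-/- arrays alone 0 and 10 passed.

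The promoters of 3 mitosis genes are printed for the paired elements through which cell cycle genes are known to be repressed in resting cells and active in dividing cells, the CCAAT box bound by NF-Y and the cell cycle homology region (CHR), TTTGAA. They are again the 150 bases before the start from RefSeq, build GRCm38.p6, with CCAAT and TTTGAA on either strand in capitals.
Cdk1, chr10:69352913-69353062, minus strand: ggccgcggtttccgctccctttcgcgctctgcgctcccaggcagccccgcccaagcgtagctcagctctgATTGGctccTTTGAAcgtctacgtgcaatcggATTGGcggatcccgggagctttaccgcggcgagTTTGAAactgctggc
Top2a, chr11:99024190-99024339, minus strand: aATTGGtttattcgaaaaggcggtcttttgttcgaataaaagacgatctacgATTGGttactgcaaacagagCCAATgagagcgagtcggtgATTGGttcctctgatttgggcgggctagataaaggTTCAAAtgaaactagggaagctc
Cdc20, chr4:118437344-118437493, minus strand: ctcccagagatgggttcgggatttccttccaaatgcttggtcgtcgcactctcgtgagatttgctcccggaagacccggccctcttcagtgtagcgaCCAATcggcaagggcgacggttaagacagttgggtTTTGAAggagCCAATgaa
Among the mitosis genes in the promoter table, 26 of 35 (74.3%) held CCAAT and 13 of 35 (37.1%) TTTGAA within 250 bases, on both strands. Over all genes of the table the shares were 37.5% and 18.3%, and over the measured genes that it holds 38.8% and 15.7%. CCAAT was held by 46.5% of the risen genes and TTTGAA by 15.8%, close to its share of measured genes. In the DNA replication list the shares were 58.6% and 13.8%. These counts describe letters, not sites in use.

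**Figure D2:**
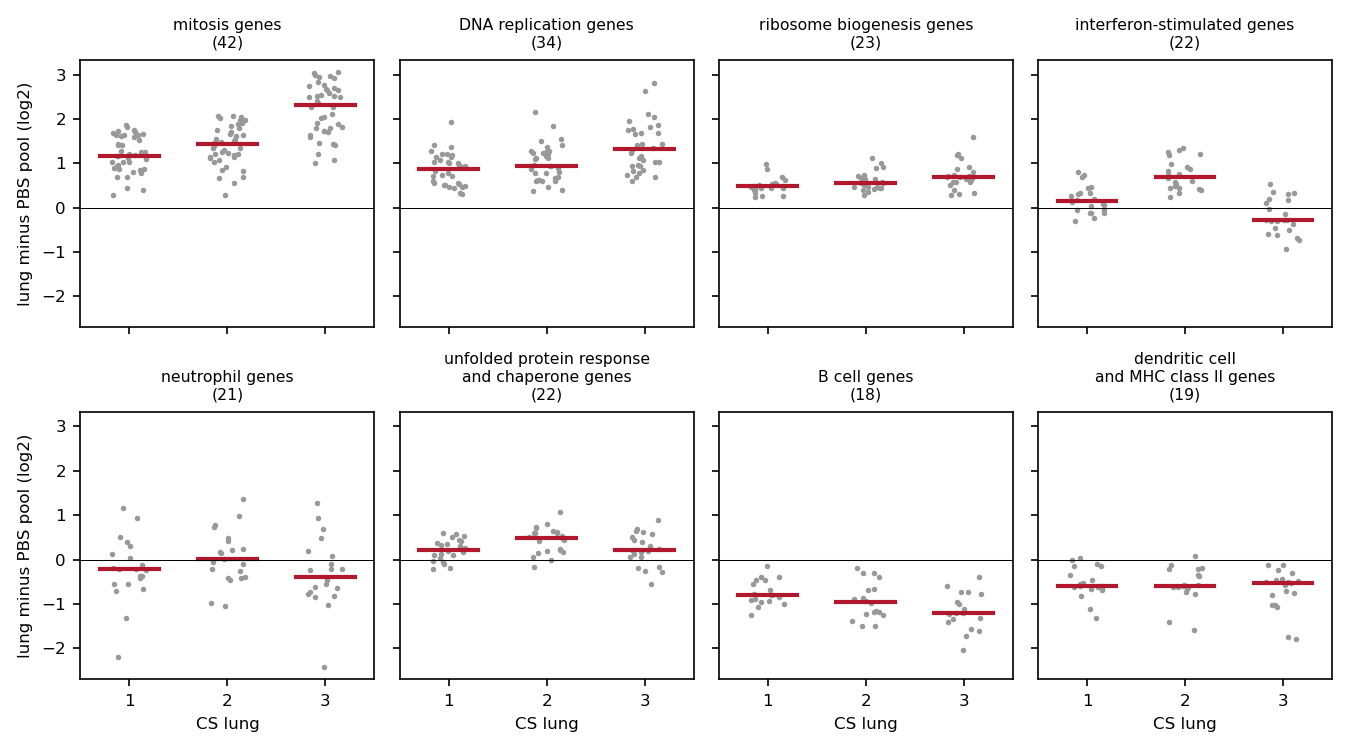
Log2 difference of each BLT1-/- CS lung from the PBS pool (vertical axis) for the measured members of 8 gene lists, 1 grey dot per gene and a red bar at the median of the list in that lung. The mitosis list lies above 0 in every lung with medians of 1.17, 1.43 and 2.32, the interferon list has medians of 0.15, 0.70 and -0.28, and the B cell list lies below 0 in every lung.

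Genes for making ribosomes and lipids rose alongside the cell cycle. Of 23 ribosome biogenesis genes 16 rose and none fell, with a median of 0.58. Nop58, a core protein of the particles that modify ribosomal RNA, stood at 10.06, 10.21 and 10.68 against 9.08, a difference of 1.23 ± 0.24. Myc, the transcription factor that drives ribosome production, was at 10.66, 10.65 and 10.84 against 9.45, a difference of 1.26 ± 0.17 (adjusted p = 0.00237). The nucleolar GTPase gene Gnl3 rose by 0.97 ± 0.19 and the RNA helicase Ddx21 by 0.61 ± 0.12. Against the BLT1+/+ pool 11 of the 23 passed, without lung 3 the count was 11, and with the 8 day 2 arrays alone it was 4.

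Of 22 cholesterol and fatty acid synthesis genes 10 rose and none fell, and all 10 belong to the cholesterol branch. Cyp51, the lanosterol demethylase, was at 10.48, 10.56 and 10.64 against 9.51, a difference of 1.05 ± 0.14 (adjusted p = 0.00275). Squalene epoxidase (Sqle) rose by 0.84 ± 0.15, and Fdps, which makes farnesyl diphosphate, by 0.46 ± 0.10, the latter not called without lung 2 (adjusted p = 0.0537). The fatty acid genes Fasn, Acaca, Acly and Scd1 differed by -0.13, -0.19, -0.17 and -0.02, none past the test. Against the BLT1+/+ pool 3 genes of the list passed, Cyp51, Sqle and Fdps.

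Of 22 unfolded protein response and chaperone genes 8 rose and none fell, with a median of 0.28. Dnajb11, a co-chaperone of the endoplasmic reticulum, rose by 0.61 ± 0.12 and Manf, a secreted stress protein, by 0.62 ± 0.13. Hspa5, the chaperone BiP, was at 12.81, 13.08 and 12.94 against 12.44, a difference of 0.50 ± 0.13 (adjusted p = 0.0409), lost without lung 2 (adjusted p = 0.0912) or lung 3 (adjusted p = 0.0802). The stress effectors Ddit3 and Trib3 differed by -0.01 and -0.02 and did not pass. The count was 3 without lung 2, 5 without lung 3, 4 against the BLT1+/+ pool and 0 with the 4 BLT1-/- arrays alone.

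The promoter of Hspa5 is shown for its endoplasmic reticulum stress element (ERSE), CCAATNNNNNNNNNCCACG, in capitals, in the 150 bases before the start from RefSeq, build GRCm38.p6.
Hspa5, chr2:34771940-34772089, plus strand: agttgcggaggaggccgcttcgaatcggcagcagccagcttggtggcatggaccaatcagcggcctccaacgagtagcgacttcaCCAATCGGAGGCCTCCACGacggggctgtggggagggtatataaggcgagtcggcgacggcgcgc
The element, which contains CCAAT, was present in 6 of the 21 genes of this list that the promoter table holds (28.6%) and in 0.13% of all genes of the table, both strands searched.

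Antioxidant and metal-binding genes rose in part. Of 25 NRF2 and antioxidant genes 6 rose and 2 fell. Slc7a11, the cystine importer that feeds glutathione synthesis, was at 10.00, 9.80 and 10.14 against 7.51, a difference of 2.46 ± 0.48 (adjusted p = 0.0114). Heme oxygenase 1 (Hmox1) rose to 10.85, 10.85 and 10.80 from 9.72, and the glutathione synthesis enzyme Gclc by 0.81 ± 0.13. Catalase (Cat) fell by 0.36 and the glutathione transferase Gstm1 by 0.64. The metallothionein genes Mt2 (13.78, 13.74 and 13.93 against 12.25) and Mt1 (12.40, 12.31 and 12.63 against 11.51) rose by 1.56 ± 0.24 and 0.94 ± 0.19, and the interleukin 6-induced zinc importer Slc39a14 by 1.58 ± 0.21, among 4 rises in 12 genes of metallothioneins and zinc transporters. In all 3 the lungs were tightly grouped above the pool.

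Epithelial repair genes, which mark injured and transitional alveolar epithelium, rose in 11 of 19 cases with none lower and a median of 0.79. The largest rise of this list was that of Tnip3, at 3.11, which is also counted among the NF-kB feedback genes. Sprr1a, a cross-linked envelope protein of stressed epithelium, stood at 12.19, 12.29 and 12.13 against 9.81, a difference of 2.40 ± 0.50 (adjusted p = 0.0161). The keratin Krt8 rose from 12.52 to 13.30, 13.26 and 13.49, the tight junction gene Cldn4 from 8.93 to 10.23, 10.41 and 10.68, and stratifin (Sfn), a 14-3-3 protein, from 9.14 to 10.65, 10.65 and 11.21. No lung overlapped the pool in these genes. Slc5a1, a sodium-glucose transporter, rose by 1.13 ± 0.14. Krt18 and Krt7 rose by 1.20 ± 0.23 and 1.10 ± 0.19 and were not called against the BLT1+/+ pool, where 8 of the 19 passed as higher. The surfactant genes Sftpb and Sftpc differed by -0.05 and -0.03 and the type 1 gene Ager by 0.03, none past the test. Of 20 alveolar type 2 genes 2 rose and 2 fell, and of 16 type 1 genes 2 rose and none fell. Krt7 is 1 of these type 1 rises and is thus counted in both lists. Without lung 1 the type 2 list had 2 rises and 1 fall, without lung 2 it had 1 and 1, and without lung 3 it had 1 and 0, while the type 1 list had 1 rise without lung 3. Against the BLT1+/+ pool 2 type 1 genes were lower and none higher.

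Of 18 growth factors of repair 4 rose and none fell, with a median of 0.09. Epiregulin (Ereg) was at 8.58, 9.25 and 10.15 against 6.91, a difference of 2.42 ± 0.56 (adjusted p = 0.0234) with a wide spread between lungs. Hbegf, another ligand of the same receptor, was at 11.62, 11.66 and 11.82 against 10.42, a difference of 1.29 ± 0.16 (adjusted p = 0.00136) with a narrow one. Fgf2 rose by 0.91 ± 0.18 and Igf1 by 0.88 ± 0.19, and the other 14 did not pass.

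Genes of provisional matrix, of protease control and of collagen rose in part. Tenascin C (Tnc), a matrix protein of wounds, was at 11.57, 11.98 and 12.27 against 8.90, a difference of 3.04 ± 0.33 (adjusted p = 0.000708). Timp1, the inhibitor of matrix metalloproteases, was at 12.62, 12.89 and 12.70 against 9.24, a difference of 3.5 ± 0.34 (adjusted p = 0.000418). Has2, a hyaluronan synthase, was at 8.69, 9.28 and 9.91 against 7.23, and Tnfaip6, which links hyaluronan, rose by 0.94 ± 0.19. In each of these genes the lowest lung lay above the pool. Of 23 collagen genes and processing enzymes 8 rose and none fell, with a median of 0.39. The fibrillar collagen Col3a1 rose by 0.74 ± 0.11 and the basement membrane collagen Col4a2 by 0.55 ± 0.10. This count was 2 without lung 2, 3 without lung 3 and 4 after quantile normalization.

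Coagulation and plasminogen genes rose in 5 of 19 cases and fell in 1, with 3 rises without lung 3 and 8 with the replicate block. Tissue factor (F3), which starts coagulation, was at 11.94, 11.96 and 12.27 against 10.78, a difference of 1.28 ± 0.26 (adjusted p = 0.0133). The urokinase gene Plau and its receptor Plaur rose by 0.95 ± 0.22 and 0.86 ± 0.19. Serpinb2, an inhibitor of urokinase, differed by 1.98 with an adjusted p of 0.0503 and passed with the replicate block (adjusted p = 0.000433) and without lung 1 (adjusted p = 0.00705). Vwf, the platelet-binding factor of endothelium, fell by 0.50, a call lost without lung 1 (adjusted p = 0.0676), lung 2 (adjusted p = 0.0649) or lung 3 (adjusted p = 0.102).

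Lymphocyte and antigen presentation genes fell. Of 18 B cell genes 10 fell and none rose, with a median of -1.05. All 18 lay below the shared pool in each lung, which does not set the list apart. Of 23 ciliated cell genes, where 1 fell, 22 also had all lungs on 1 side of the pool. Among 19 genes of dendritic cells and MHC class II, 9 fell and none rose (median -0.57), of 18 natural killer and cytotoxic genes 8 fell (median -0.54), and of 23 T cell genes 6 fell (median -0.44). The T cell and dendritic cell lists share the receptor gene Ccr7. The largest fall of the dendritic cell and MHC class II list was that of Ly6d, a gene also of B cell precursors. The fall of this list is thus not separate from that of the B cell list. A whole-lung array cannot tell fewer of these cells from less RNA in each.

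Ms4a1, encoding the B cell antigen CD20, stood at 9.36, 9.21 and 8.99 in the CS lungs and 10.60 in the pool, a difference of -1.41 ± 0.30 (adjusted p = 0.0166). The B cell receptor components Cd79a (9.22, 8.68 and 8.13 against 10.17) and Cd79b (10.26, 10.03 and 10.05 against 11.25) fell by 1.5 and 1.14. No lung overlapped the pool, and lung 3 was the lowest for Cd79a but not for Cd79b. Bank1, a B cell scaffold protein, fell by 1.37, and its call was lost without lung 2 (adjusted p = 0.0511) or lung 3 (adjusted p = 0.0543). The summed level of the B cell list was 12.71 to 13.13 in the lungs against 13.91 in the pool and 14.03 in the BLT1+/+ pool. With 1 of the lungs 2 and 3 left out, 7 of the 18 genes were called.

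Nkg7, a granule membrane gene of natural killer and cytotoxic T cells, fell from 9.98 to 8.83, 8.91 and 8.38, and granzyme A (Gzma), a killing protease, from 9.75 to 8.74, 8.92 and 8.36. Cd3e, a chain of the T cell receptor complex, fell from 9.83 to 9.02, 8.94 and 8.75, a difference of -0.93 ± 0.18 that was not called against the BLT1+/+ pool. The T cell count was 2 without lung 2 and 1 without lung 3, and with lung 3 left out the natural killer count was 4. The MHC class II chains H2-Aa, H2-Ab1 and H2-Eb1, which present peptides to helper T cells, fell by 0.56, 0.69 and 0.79. Ly6d, a surface protein of B cell and plasmacytoid precursors, fell from 10.44 to 9.13, 9.03 and 8.64 (difference -1.51 ± 0.22, adjusted p = 0.00381). H2-Ob, which tunes peptide loading in B cells, fell by 1.48 and was not called without lung 2 (adjusted p = 0.0518) or lung 3 (adjusted p = 0.0564). The MHC class II count was 6 without lung 2 and 4 without lung 3.

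Airway secretory and detoxification genes were the other falls by number. Of 18 club cell genes 5 fell and none rose, and of 24 xenobiotic and steroid metabolism genes 6 fell and 1 rose. The secretoglobin Scgb3a2 was at 10.62, 10.67 and 10.44 against 11.22, a difference of -0.64 ± 0.12 (adjusted p = 0.00951), and paraoxonase 1 (Pon1) at 10.67, 10.86 and 10.48 against 11.56, a difference of -0.90 ± 0.15. Microsomal epoxide hydrolase (Ephx1) and the aldehyde oxidase Aox3 fell by 0.90 and 0.92. All lungs lay below the pool in these genes, whereas the most abundant club cell product Scgb1a1 differed by -0.08 and did not pass. The club cell count was 3 without lung 2 and 3 without lung 3.

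Genes of tissues that a dissected lung can carry along were called in few cases. Over all genes 5.19% rose and 1.4% fell. Of 20 cartilage genes 2 fell and none rose, and the largest of these falls was that of Chad. Of 13 skeletal muscle genes 1 fell, and of 13 thymus genes 1 fell. Of 10 thyroid and parathyroid genes 1 rose, and of 13 mesothelial and nerve genes 2 rose. Of 19 heart muscle genes 3 fell and 1 rose, with a median of -0.59; the lung veins of mice hold heart muscle, and the hilum can bring atrial tissue. The summed level of this list was 13.64 to 14.19 in the lungs, 14.64 in the pool and 14.64 in the BLT1+/+ pool. Actc1, the cardiac actin, was at 11.45, 11.72 and 10.96 against 12.57 (difference -1.19 ± 0.33, adjusted p = 0.0458), not called without lung 1 (adjusted p = 0.0565) or lung 3 (adjusted p = 0.105), and the falls numbered 1 without lung 1, 0 without lung 3 and 6 with the replicate block. Ankrd1, a stress-induced gene of muscle and other cells, was the member that rose, from 9.26 to 10.61, 10.55 and 10.40. Array values have a floor above 0, so no marker can be called absent, and the part of dissection in the falls was not tested. Of 15 platelet genes 4 fell and 1 rose, with 2 falls without lung 1, 2 without lung 3, 6 without lung 2 and 7 with the replicate block; against the BLT1+/+ pool only Ppbp of them was called lower. No gene of the red blood cell, plasma cell, mast cell and fat lists passed, and with the replicate block 3 plasma cell genes were higher and 2 mast cell, basophil and eosinophil genes lower.

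**Figure D3:**
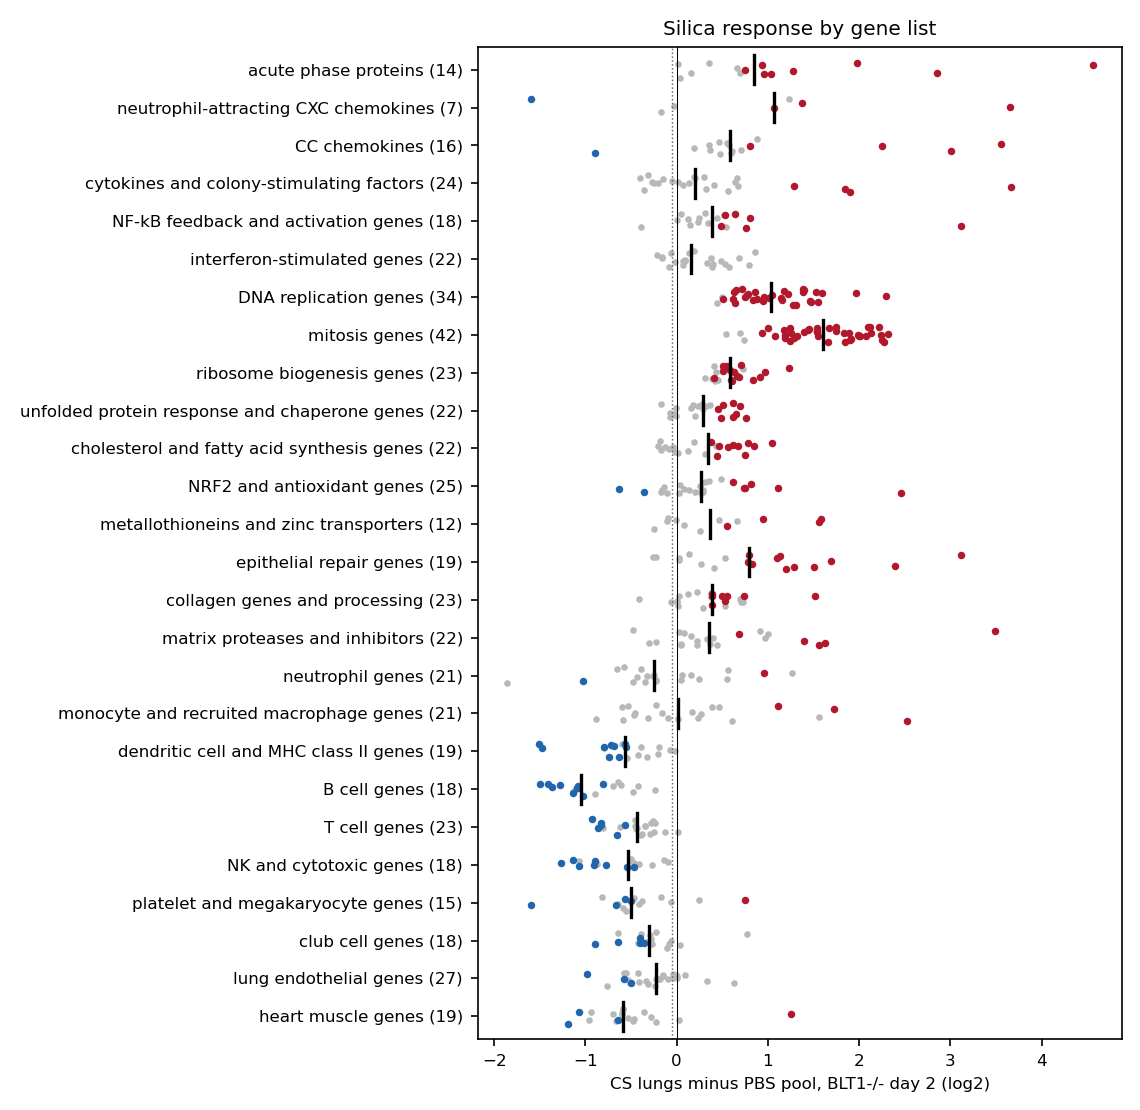
Log2 difference of BLT1-/- CS lungs from the PBS pool (horizontal axis) for each measured member of 26 gene lists, with red dots for genes that rose, blue for genes that fell, grey for genes that did not pass and a black bar at the median of the list. The dotted line is the median of all genes, -0.05; the mitosis list lies wholly to its right with a median of 1.61 and the B cell list wholly to its left with a median of -1.05.

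The day 2 lungs with BLT1 allow the question whether the response depended on the receptor. In BLT1+/+ lungs 170 genes rose after silica (0.853%) and 62 fell (0.311%), of which 152 and 52 were also called in BLT1-/- lungs. These are 14.7% of the BLT1-/- rises and 89.4% of the BLT1+/+ rises, and 18.6% and 83.9% of the falls. Of the 1035 genes that rose in BLT1-/- lungs, 1023 had a difference above 0 in BLT1+/+ lungs, and 266 of the 280 falls had one below 0. The share of all genes with the same sign in both genotypes was not counted. How far this agreement is particular to the called genes therefore cannot be judged here. The 2 responses have separate pools but share the variance estimate of each gene.

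No gene passed the test of the difference between the responses: 0% were called for the BLT1 by silica interaction in limma, and 896 genes had an unadjusted p below 0.05. The interaction had a median standard error of 0.197, against 0.139 for the response itself, and a p that misses the threshold does not show that the responses were equal. The smallest p-values belonged to the zinc finger genes Zfp979 (1.32), Zfp980 (0.84) and Zfp935 (0.74), the spermatid protein gene Tnp1 (-0.73) and the lectin-like gene Chodl (-0.64), all with an adjusted p of 0.82. Tnf illustrates the width of the interval: it rose by 2.21 in BLT1+/+ lungs (adjusted p = 0.0189) and differed by 0.64 in BLT1-/- lungs, and the interaction of -1.56 ± 0.55 had an adjusted p of 0.82. Tnf levels were 9.06, 9.71 and 10.42 against a pool at 7.53 in BLT1+/+ mice and 8.91, 8.81 and 8.74 against a pool at 8.18 in BLT1-/- mice, so the lungs of the genotypes did not overlap, and the BLT1-/- pool was the higher of the pools.

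The unequal counts of the genotypes depend on single lungs. BLT1+/+ lung 1 lay closest to its pool, with 117 genes at least 2-fold away from it, against 288 in lung 2 and 415 in lung 3. Without BLT1+/+ lung 1 the BLT1+/+ response had 463 rises and 222 falls, without lung 2 it had 50 and 15, and without lung 3 it had 63 and 14. With lung 1 left out, 327 rises and 103 falls were shared with BLT1-/- lungs. The groups also differ in their pools, which were 2-fold or more apart in 11 genes and 1.5-fold or more in 221.

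After silica, 4 genes differed directly between the lungs of the genotypes (0.0201% of those tested; 1735 had an unadjusted p below 0.05), and all 4 were lower without BLT1. Ngp was at 7.27, 7.54 and 7.85 in BLT1-/- CS lungs and 8.6, 8.86 and 8.87 in BLT1+/+ CS lungs, a difference of -1.22 ± 0.17 (adjusted p = 0.0351). Its PBS pools were at 8.58 and 8.66, so only the BLT1-/- CS lungs stood apart. Ear6, an eosinophil-associated ribonuclease gene, was at 7.11, 7.0 and 7.32 against 7.97, 8.53 and 8.71, a difference of -1.26 ± 0.18 (adjusted p = 0.0351), with pools at 7.61 and 7.76. Ddhd1, a phospholipase, and Tmem260, a mannosyltransferase, were lower by 0.66 and 0.60 after silica, at 10.60, 10.70 and 10.77 against 11.25, 11.42 and 11.40 for Ddhd1 and at 9.83, 9.83 and 9.77 against 10.36, 10.55 and 10.32 for Tmem260.

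For Ddhd1 and Tmem260 the BLT1-/- PBS pool was also the lower, 10.38 against 11.04 and 9.94 against 10.47. Each pool is 1 array, so a genotype difference without silica was not tested. Ddhd1, Tmem260 and Ear6 lie on chromosome 14, as Ltb4r1 does, and Ngp on chromosome 9. With the replicate block 21 genes passed, among them all 4. With the 8 day 2 arrays alone 2 genes passed, neither of them among the 4. Without BLT1-/- lung 1 or BLT1-/- lung 2, 1 gene was called, and without BLT1+/+ lung 2 or BLT1+/+ lung 3, 2 genes were called, in each case among the 4.

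**Figure D4:**
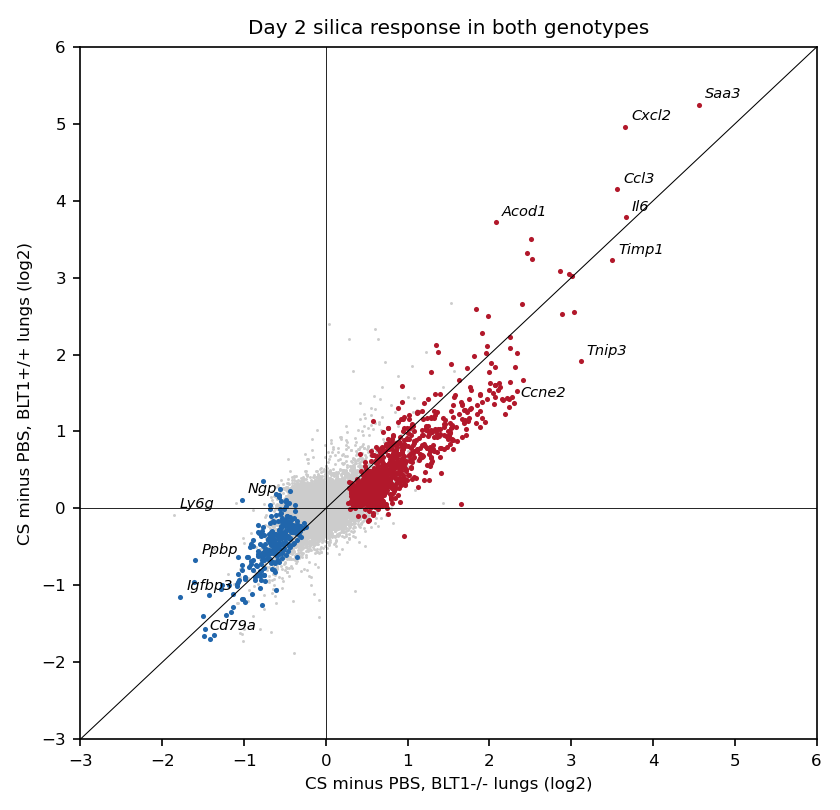
Silica response at day 2 in BLT1-/- lungs (horizontal axis) against that in BLT1+/+ lungs (vertical axis), as log2 CS minus PBS, 1 dot per gene, coloured where the gene was called. Most called genes lie on the same side of 0 in both, such as Saa3 at 4.56 and 5.25, and 1023 of the 1035 BLT1-/- rises have a BLT1+/+ difference above 0. The share of all genes that do so was not counted.

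The day 60 lungs of BLT1-/-KRasLA1 mice show which changes of the acute response were also present in the later lung. There 220 genes were higher after silica (1.1%) and 14 lower (0.0702%), including 51 of the day 2 rises and 5 of the day 2 falls in the same direction. The response was higher at day 2 for 38 genes (0.191%) and lower at day 2 for 150 (0.752%). Day and KRasLA1 go together and cannot be told apart, and the late PBS pool stood apart in a Y-linked gene chosen after its values were seen: Eif2s3y was at 9.04 in that pool, 4.45 to 4.74 in its CS lungs and 4.27 to 4.53 on all 8 day 2 arrays. Its part in the day comparison was not tested.

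Mt2, F3, Hbegf, Krt7 and Ccne2 were among the 8 genes whose response was higher at day 2 by the most. Mt2 differed by 1.56 at day 2 and -0.35 at day 60, a difference of 1.91 ± 0.34 between responses (adjusted p = 0.024). F3 differed by 1.28 and -0.49, Hbegf by 1.29 and -0.21, and the keratin Krt7 by 1.10 and -0.32. For Ccne2 the values were 2.30 and 0.36. Of the DNA replication genes 5 passed this test and of the mitosis genes none, although the medians of the lists were 1.03 and 1.61 at day 2 and 0.21 and 0.54 at day 60.

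The median of the B cell genes had the opposite sign at the 2 times. Of the 18 genes 10 were called lower at day 2, and 2 were called higher at day 60. Cd79a differed by -1.5 at day 2 and 0.91 at day 60, a difference of -2.41 ± 0.49 between responses (adjusted p = 0.0381), and Ms4a1 by -1.41 and 0.84. The median of the 18 B cell genes was -1.05 at day 2 and 0.80 at day 60, and 12 of them passed the test of the difference, as did 11 of 23 T cell genes and 9 of 19 dendritic cell and MHC class II genes. The plasma cell gene Jchain, which joins IgA and IgM, differed by -0.09 at day 2 and 2.69 at day 60. Mmp12 rose at both times, by 1.62 and 3.77, and more at day 60 (adjusted p = 0.0347). Saa3 rose by 4.56 and 5.22 and Ccl3 by 3.56 and 3.35, and for neither did the difference between times pass.

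**Figure D5:**
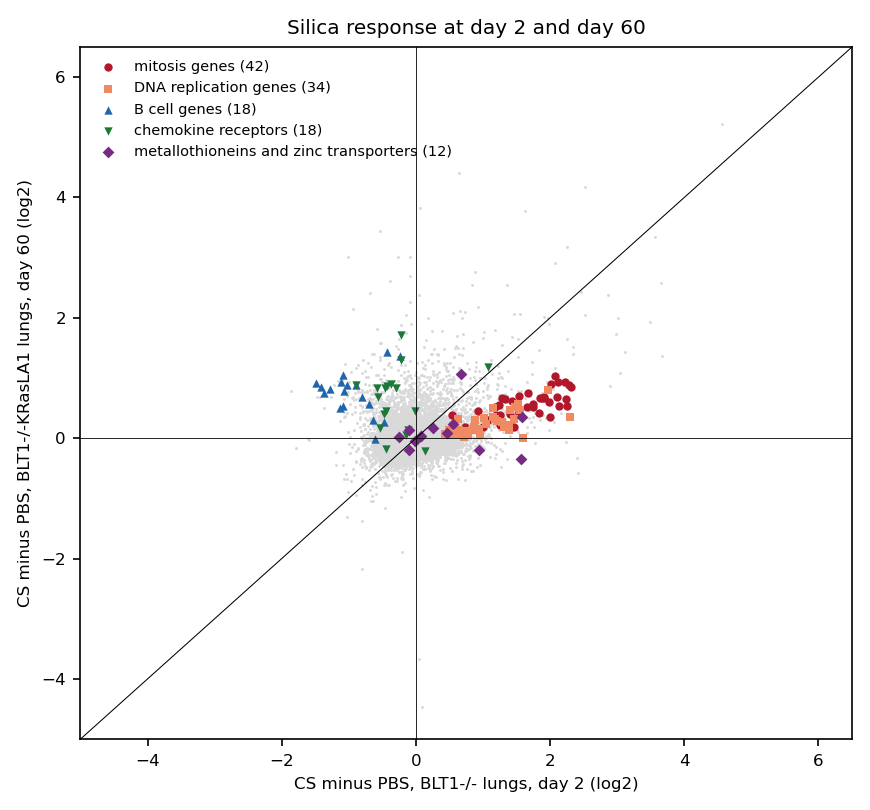
Silica response of BLT1-/- lungs at day 2 (horizontal axis) against that of BLT1-/-KRasLA1 lungs at day 60 (vertical axis), as log2 CS minus PBS, with grey dots for all genes and colours for 5 gene lists. B cell genes lie at negative day 2 and mostly positive day 60 values, with medians of -1.05 and 0.80, and mitosis genes at 1.61 and 0.54.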

How the data were processed

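RNA of whole mouse lungs was hybridised to 16 Affymetrix whole-transcript arrays, of which the 8 arrays of day 2 and the 4 BLT1-/-KRasLA1 arrays of day 60 are described. The deposited values are log2 intensities that the authors obtained in Partek 6.6 by RMA, as the submitters' processing notes say, and the array medians lay between 8.25 and 8.34. Probe sets numbered 35556, of which 21789 had 1 gene symbol, 1621 several and 12146 none, and each of the 19938 genes was represented by whichever of its probe sets was brightest on average across the 16 arrays. RMA compresses low intensities, so folds of dim genes are understated, and the number of arrays limits the precision.

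Means of the 8 groups were fitted by limma 3.58.1 under R 4.3.3 to the 16 arrays together (lmFit, eBayes with a mean-variance trend, 8 residual degrees of freedom), with Benjamini-Hochberg adjustment over all genes and a threshold of 0.05. The script was tested on simulated data. Same-numbered CS lungs of the BLT1-/- and BLT1+/+ groups at day 2 deviated together, with correlations of 0.426, 0.2 and 0.345. Lungs of unlike number had correlations of -0.398 to 0.097. The replicate block was run as an alternative that takes these numbers as pairing. The labels do not state a pairing, and these same data cannot establish it. Genes said to pass with the block rest on that assumption. The pools carry no number. Members and gene lists (63 lists, 1083 of 1166 members measured) were chosen with earlier results of these data known. Genes were named if they were among the 15 largest rises or falls past the threshold with 1 sign in all lungs, members of a list, Ltb4r1, or among the 8 leading genes each way of the other comparisons (the 5 smallest p-values where none passed). Alternatives were other normalizations, variance models, filters, probe set rules, array subsets, controls and leaving out each lung. Promoter sequences came from RefSeq, build GRCm38.p6.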

Additional observations from a re-analysis of the deposited data

Results flagged for a closer look

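The day 2 response of BLT1-/- lungs and the day 60 response of BLT1-/-KRasLA1 lungs differed by limma's test of the difference for 38 genes that were higher and 150 that were lower at day 2. The differences of the responses were 1.94 for Ccne2, 1.91 for Mt2, 1.76 for F3, 1.5 for Ctps, 1.5 for Hbegf, 1.44 for Ankrd1, 1.42 for the lectin gene Cd209f and 1.42 for Krt7. In the other direction they were -2.78 for Jchain, -2.41 for Cd79a, -2.38 for Ly6d, -2.35 for the wax synthase gene Awat1, -2.26 for Ms4a1, -2.15 for Mmp12, -2.14 for the B cell transcription factor gene Spib and -2.13 for Bank1. Day and KRasLA1 cannot be told apart in these values. Groups of 3 lungs and 1 pool are too small for a search for single outlying samples.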

How the results depend on the processing

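Main counts were 1035 rises and 280 falls. They were 349 and 76 with the 8 day 2 arrays alone, 168 and 50 with the 4 arrays compared, 1754 and 893 with array weights, 1686 and 659 with the replicate block, and 1696 and 946 against the mean of both pools; falls numbered 484 after quantile normalization and 561 against the BLT1+/+ pool. Leaving out a BLT1-/- lung gave 591 to 1242 rises and 106 to 307 falls. The 4 genes that differed between genotypes became 2 with the 8 day 2 arrays, with the arrays compared or without the variance trend, 7 after quantile normalization, 7 without genes below the median level, 21 with the replicate block, and 1 to 6 with a lung left out. The 188 genes that differed between days became 121 without the variance trend, 741 with array weights and 132 to 208 with a lung left out. No alternative gave an interaction call. Leaving out BLT1+/+ lungs in the BLT1+/+ response was chosen after seeing the data and gave 50 to 463 rises and 14 to 222 falls. Plod2, a collagen-modifying enzyme gene, turned from 0.01 to -0.57 (limma adjusted p = 0.0278) against the BLT1+/+ pool. With the replicate block no called list gene lost its call and 88 gained one; the unnumbered pools took the average of the 3 numbers in that fit. The causes were not tested. A single PBS pool limits every response.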
